A study of Rattus norvegicus with 3 samples.

Results

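Genes of the blood-brain barrier endothelium were followed in hippocampal tissue of rats, wild type in genotype and healthy, given Q808 by gavage over 28 days. Q808 is a code name for a compound under study against seizures. The 10 genes are Cldn5, Ocln, Tjp1, Slc2a1, Mfsd2a, Pecam1, Flt1, Tek, Acvrl1 and Pdgfrb, chosen by symbol and matched to the count rows by NCBI gene identifier. All 10 were found among the 18560 genes of replicate 2. The series has 3 samples in 1 group, numbered 1 to 3 in their titles, and the titles do not state that each is a separate animal. The labels used here give no strain, sex or age, and no untreated sample was analysed here, so none of the values measures an effect of Q808. The count columns carry the prefix Con_Q, and the labels do not explain it. If it stands for control, these values describe untreated and not treated rats.

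The table of replicate 2 held 15417009 counts. The tables of replicates 3 and 1 stop after 307 and 12 genes in alphabetical order, so their depth is unknown. Of the barrier genes, Acvrl1 alone has a row in the table of replicate 3, and none has one in that of replicate 1. Levels are therefore those of replicate 2, with no replicate check, except for Acvrl1. They are given as CPM, the count divided by the table's total and scaled so that all genes sum to 1000000, with a 95% exact Clopper-Pearson interval that covers counting error only. No transcript lengths were available here, so an order of CPM values between genes is an order of read yield and not of molecules. In a whole piece of tissue, fewer vascular cells and less RNA per cell cannot be told apart.

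The blood-brain barrier is formed by endothelial cells that are sealed to each other by tight junctions, carry nutrients across with dedicated transporters and keep vesicle traffic low. Pericytes, held to the vessel by PDGF signalling, and the endfeet of astrocytes surround these cells and help to maintain them. In epilepsy the barrier is studied both because leakage of blood proteins can raise neuronal excitability and because efflux pumps limit the entry of antiseizure drugs. Some of the listed genes are not private to endothelium. Tjp1 is also used by neurons, glia and epithelia, Slc2a1 is also found in astrocytes, and Pdgfrb is a gene of pericytes and smooth muscle, so the name endothelial does not cover it.

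RefSeq promoter windows (assembly GRCr8, 250 bases before to 50 after the annotated start) matched 5 of the 10 genes. Those of a junction gene, a transporter gene and a receptor gene are shown as examples, and a single gene does not stand for its class. Cldn5 lies on chr11:95718549-95718848 (minus strand), Slc2a1 on chr5:138002272-138002571 (plus strand) and Flt1 on chr12:12333180-12333479 (plus strand). The genome build behind the counts is not given in these sources. Capitals mark matches on either strand to TATAAA (the letters of the TATA box core), TGACGTCA (a cAMP response element) or GGAAG (an ETS factor core), which do not overlap in these windows.
Cldn5: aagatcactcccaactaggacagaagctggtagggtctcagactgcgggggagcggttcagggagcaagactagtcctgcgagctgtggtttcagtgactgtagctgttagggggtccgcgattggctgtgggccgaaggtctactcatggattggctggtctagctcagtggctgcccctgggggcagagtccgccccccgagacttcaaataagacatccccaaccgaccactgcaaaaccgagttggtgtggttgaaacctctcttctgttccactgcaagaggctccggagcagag
Slc2a1: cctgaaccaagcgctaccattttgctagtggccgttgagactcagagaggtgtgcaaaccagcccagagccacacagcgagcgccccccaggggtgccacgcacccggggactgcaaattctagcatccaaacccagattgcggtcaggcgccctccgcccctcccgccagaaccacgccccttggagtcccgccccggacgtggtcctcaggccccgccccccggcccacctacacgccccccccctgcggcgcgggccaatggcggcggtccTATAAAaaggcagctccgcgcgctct
Flt1: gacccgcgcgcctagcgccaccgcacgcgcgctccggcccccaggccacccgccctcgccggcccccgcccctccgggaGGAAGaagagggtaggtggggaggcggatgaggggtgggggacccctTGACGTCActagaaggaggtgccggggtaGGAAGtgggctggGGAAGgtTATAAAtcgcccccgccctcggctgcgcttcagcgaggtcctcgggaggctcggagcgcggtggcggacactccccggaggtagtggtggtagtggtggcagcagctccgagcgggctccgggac
The Flt1 window held all 3 motifs, with GGAAG at 3 places. Its TATAAA started at base -75 relative to the annotated start, and whether it acts as a TATA box was not tested. TGACGTCA occurred in 1.83% of the 33469 promoter windows of the table, TATAAA in 14.2% and GGAAG in 70.1%. Slc2a1 held TATAAA alone, starting at base 25 after the annotated start and not before it, where a TATA box for that start would lie. Cldn5 held none of these motifs. Of the junction genes whose windows are not shown, Ocln held GGAAG at base -205 and Tjp1 held none. In the human FLT1 promoter, a cAMP response element and a nearby ETS motif are known to act together. The counts do not measure promoter activity, and a match is a description of letters.

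All 10 genes were read in replicate 2, each with more than 100 counts, a level that 58.6% of all genes in the table reached. Their CPM values ran between 10.4 and 150.4 with a median of 23.6 CPM, against 12.7 CPM over all genes and 25.2 CPM over the 14295 genes with at least 10 counts. Together they took 8345 counts, or 0.0541% of the table (95% interval 0.0530% to 0.0553%). Tjp1, Slc2a1 and Cldn5 held 69.2% of these counts. Of the 10 genes, 9 lay above the median of all genes and 4 above that of genes with at least 10 counts.

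**Figure D1:**
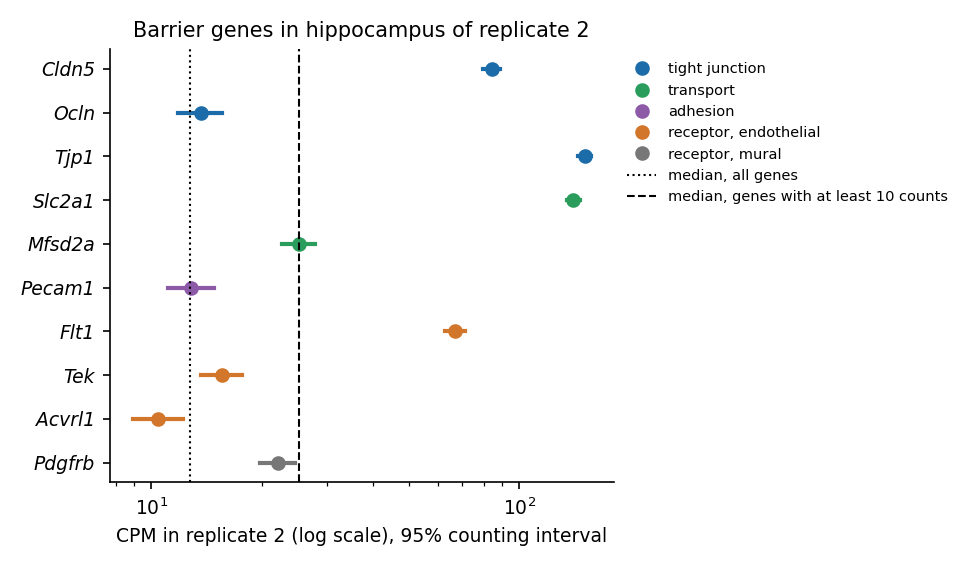
CPM of the 10 barrier genes in replicate 2 on a log axis, coloured by role, with bars for the 95% counting interval and vertical lines at the median of all genes (dotted, 12.7 CPM) and of genes with at least 10 counts (dashed, 25.2 CPM). Tjp1, Slc2a1, Cldn5 and Flt1 stand to the right of both lines, and Acvrl1 at 10.4 CPM is the lowest.

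The tight junction genes were read at unequal yields. Cldn5, the claudin that seals the brain endothelial junction against small molecules in mice, had 1296 counts in replicate 2, or 84.1 CPM (79.5 to 88.8). Tjp1, which encodes the scaffold ZO-1 that ties the strands to actin, had 2318 counts, or 150.4 CPM (144.3 to 156.6), more than any other of the 10 genes. Ocln, the gene of the junction membrane protein occludin, had 210 counts, or 13.6 CPM (11.8 to 15.6). Tjp1 and Cldn5 ranked at the 91.8th and 84.3rd percentiles of read yield among all genes, and Ocln at the 50.95th.

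Related junction genes were set beside each of these as counts in the same library. Among 13 claudin genes, Cldn5 held 15.8% of the counts. Cldn11, the claudin of oligodendrocyte myelin, held 66.4% with 5460 counts. Cldn12 had 691 counts and Cldn10 had 470, so Cldn5 had 1.88 and 2.76 times their counts (counting intervals 1.71 to 2.06 and 2.48 to 3.07). Cldn9 (114 counts), Cldn1 (81), Cldn19 (52), Cldn2 (30), Cldn23 (21) and Cldn3 (10) were lower, and Cldn14, Cldn20 and Cldn22 were at 0 counts. For a count of 0 the limit used here is 3 counts, or 0.195 CPM. Cldn1 and Cldn3 have both been discussed as barrier claudins in rodents. Ocln had 210 counts beside 29 for Marveld2, the tricellulin gene of contacts between several cells. Tjp1 had 2318 counts beside 217 for its relative Tjp3.

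Both transporter genes were read clearly. Slc2a1, the gene of the glucose transporter GLUT1 that feeds glucose into the brain, had 2163 counts, or 140.3 CPM (134.4 to 146.3), at the 91.2nd percentile. Mfsd2a, which carries lysophospholipids with omega-3 fatty acids and restrains vesicle transport across the endothelium in mice, had 388 counts, or 25.2 CPM (22.7 to 27.8), close to the median of genes with at least 10 counts. Its relative Mfsd2b had 1 count.

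Among 9 listed sugar transporter genes, Slc2a1 held 34.6% of the counts and came after Slc2a13, a proton-coupled inositol transporter gene, with 2840 counts. Slc2a8 had 574 counts and Slc2a6 had 440. Slc2a5, the fructose transporter gene that marks microglia in brain, had 117. Slc2a3, which encodes the main glucose transporter of neurons, had 24 counts (1.56 CPM), the same number as the insulin-regulated Slc2a4. Neuron markers in the same library had a median of 527 CPM, but ran from 17.2 CPM (Eno2) to 2479 CPM (Snap25). Whether the row of Slc2a3 undercounts the gene was not tested, so its low count is not a sign of absence. Slc2a12 had 57 counts and Slc2a10 had 14.

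Pecam1, the gene of the adhesion molecule CD31 at endothelial contacts, had 198 counts, or 12.8 CPM (11.1 to 14.8), at the 50.1st percentile. The endothelial adhesion genes Esam (225 counts), Cdh5 (91 counts), which encodes VE-cadherin, and Icam2 (62 counts) were set beside it. Pecam1 had 0.880 times the counts of Esam, with a counting interval of 0.723 to 1.07 that spans equal counts, 2.18 times those of Cdh5 (1.69 to 2.82) and 3.19 times those of Icam2 (2.39 to 4.32).

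The receptor genes spanned a wide range. Flt1, a receptor that binds VEGF and limits its signal, had 1031 counts, or 66.9 CPM (62.9 to 71.1). Kdr, the main signalling receptor for VEGF, had 100 counts, so Flt1 had 10.3 times its counts (8.39 to 12.8), and Flt4, the lymphatic relative, had 21. Tek, the angiopoietin receptor known as Tie2, had 240 counts, or 15.6 CPM (13.7 to 17.7). Its partner Tie1 had 269 counts, and the ratio of 0.892 (0.746 to 1.07) spans equal counts. Acvrl1, the endothelial receptor ALK1 for circulating BMP9 and BMP10, had 161 counts, or 10.4 CPM (8.89 to 12.2), the smallest number among the 10 genes. Pdgfrb, the pericyte receptor for endothelial PDGF-B, had 340 counts, or 22.1 CPM (19.8 to 24.5). Pdgfra, a gene of oligodendrocyte precursors and fibroblasts, had 928 counts.

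In order of read yield, neighbouring genes were compared by the ratio of their counts with its 95% counting interval. Tjp1 had 1.07 times the counts of Slc2a1 (1.01 to 1.14), Slc2a1 had 1.67 times those of Cldn5 (1.56 to 1.79), and Cldn5 had 1.26 times those of Flt1 (1.16 to 1.37). The steps to Mfsd2a and to Tek also had intervals above 1. The interval spanned equal counts between Mfsd2a and Pdgfrb (1.14, 0.984 to 1.32), Tek and Ocln (1.14, 0.946 to 1.38), Ocln and Pecam1 (1.06, 0.869 to 1.29) and Pecam1 and Acvrl1 (1.23, 0.994 to 1.52).

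**Figure D2:**
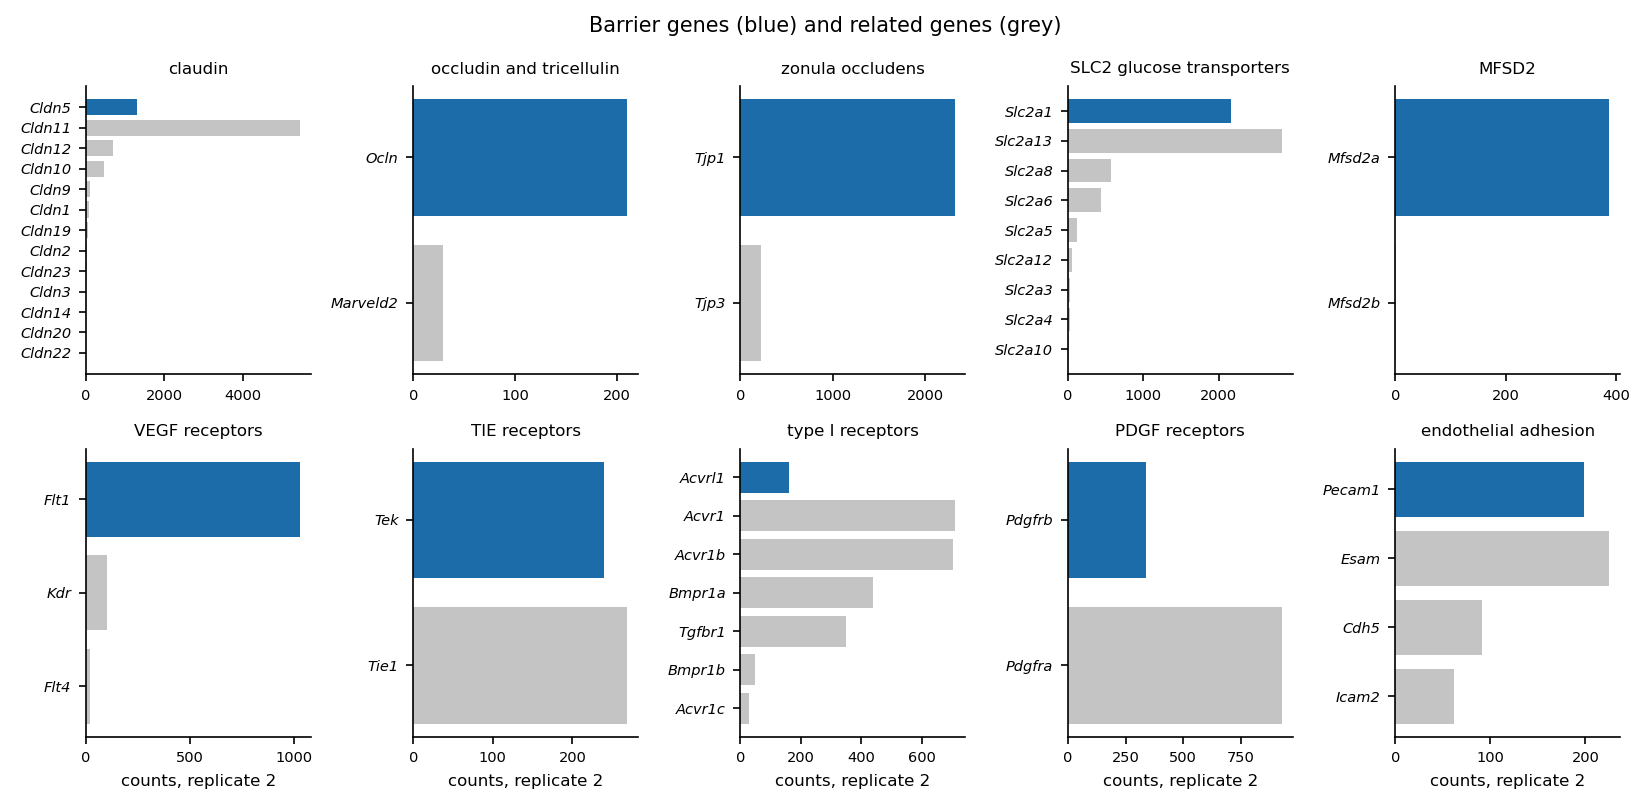
Counts in replicate 2, on linear axes that start at 0 and differ between panels, for each barrier gene (blue) and the related genes set beside it (grey). Cldn5 is second to the myelin gene Cldn11, Slc2a1 to Slc2a13, and Flt1 has more counts than Kdr and Flt4.

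The wider programme around these genes was read from lists chosen for known roles in or around vessels, called vascular lists here. The lists share some genes with the 10 and with each other. Their genes are not all private to vessels, so reads from other cells are included. All 31 endothelial identity genes with a row had at least 10 counts, against 77.02% of all genes, with a median of 10.7 CPM. Flt1, the adhesion receptor gene Adgrf5 (43.8 CPM) and the surface sialomucin gene Podxl (37.6 CPM) led that list. Plvap, which marks fenestrated vessels and is low in a mature barrier, had 32 counts, or 2.08 CPM. All 20 mural genes had a row and 19 had at least 10 counts, with a median of 8.82 CPM. Mcam (28.8 CPM), Cspg4 (26.1 CPM), which is also a gene of oligodendrocyte precursors, and Pdgfrb led them, and the smooth muscle gene Cnn1 had 4 counts. Both medians are below the 25.2 CPM of all genes with at least 10 counts.

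All 18 junction genes with a row reached 10 counts (median 14.3 CPM), led by Tjp1, the adherens junction scaffold gene Afdn (89.4 CPM) and Cldn5. All 22 transport genes reached it as well (median 47.2 CPM). That list was led by Lrp1, a scavenger receptor gene that neurons and glia also use, at 522 CPM, by Slc3a2, the heavy chain partner of the amino acid carrier, at 171 CPM, and by the efflux pump gene Abcc5 at 156 CPM. Slc2a1 came behind these and Mfsd2a in the lower part of the list.

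All 27 angiogenic ligand and receptor genes reached 10 counts, with a median of 17.4 CPM. The coreceptor genes Nrp1 (122 CPM) and Nrp2 (91.1 CPM) and the ligand gene Vegfa (103 CPM) led them, and all of these are known from neurons or glia as well. Angpt2, the angiopoietin that destabilises vessels, had 13 counts beside 127 for Angpt1, the activating ligand of Tek. Pdgfb, the ligand gene for Pdgfrb, had 318 counts.

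Of the 27 BMP and TGF-beta genes with a row, 25 reached 10 counts, with a median of 24.3 CPM. Bmpr2, the type II partner of Acvrl1, had 231 CPM, Acvr2a had 81.8 CPM and the signal transducer gene Smad3 had 77.97 CPM. Eng, the coreceptor that presents BMP9 to Acvrl1, had 330 counts. The ligand gene Bmp10 and Smad9 had no count. Id1 and Id3, targets of BMP signalling in many cells, had 317 and 751 counts.

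All 18 Wnt pathway genes reached 10 counts (median 15.96 CPM). Ctnnb1, the beta-catenin gene, had 424 CPM, Tspan12 had 45.8 CPM and the Wnt target gene Apcdd1 had 34.4 CPM. The ligand genes Wnt7a and Wnt7b had 520 and 261 counts, and Adgra2 and Reck, which form the receptor complex for these ligands on brain endothelium, had 393 and 394.

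Genes of the basement membrane and of astrocyte endfeet had higher medians than the endothelial and mural lists. All 18 basement membrane genes reached 10 counts (median 43.9 CPM), led by Sparc (434 CPM), Agrn (153 CPM) and Dag1 (141 CPM), which is on the endfoot list too. The list was spread widely. Col4a2 (103 CPM) and Col4a1 (48.4 CPM) lay above its median. Hspg2 (9.99 CPM), Lama5 (9.79 CPM) and Lama4 (8.37 CPM) lay below the endothelial identity median of 10.7 CPM. All 12 genes of astrocyte endfeet reached 10 counts (median 129 CPM). They were led by Gfap (757 CPM), by Aqp4, the endfoot water channel gene, at 533 CPM and by the connexin gene Gja1 at 379 CPM. Astrocytes carry these genes outside the endfeet as well.

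Genes of endothelial activation and leak were the lowest of the vascular lists. Of 12 genes, 10 reached 10 counts, with a median of 3.83 CPM. Vcam1 (35.0 CPM), Cav1 (31.1 CPM) and Ackr1 (23.3 CPM) led them. Icam1 had 52 counts, the leukocyte selectin gene Sele had 7 and Selp had 0 (limit 0.195 CPM). With no untreated sample these levels are not a test of whether the barrier was intact.

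**Figure D3:**
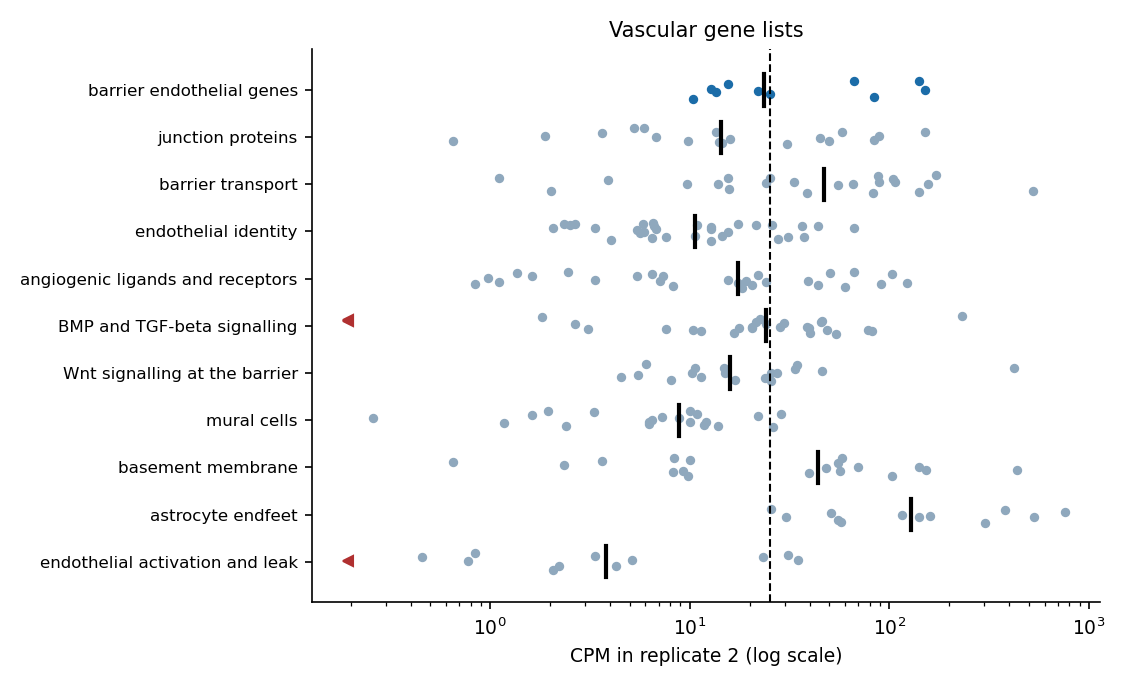
CPM in replicate 2 on a log axis for each gene of 11 vascular lists, the 10 barrier genes in blue, with a black bar at the median of genes with at least 10 counts. Red triangles mark genes with no count, drawn at the limit of 0.195 CPM, and the dashed line is the median of all genes with at least 10 counts (25.2 CPM). The endfoot, transport and basement membrane medians lie right of that line and the activation list lies farthest left.

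Markers of neurons, astrocytes and oligodendrocytes had higher medians than any of the vascular lists. Median CPM over detected markers was 527 for neurons, 456 for astrocytes, 331 for oligodendrocytes, 48.1 for oligodendrocyte precursors and 27.0 for microglia. Choroid plexus and ependyma (5.71 CPM), leptomeninges and fibroblasts (8.95 CPM) and blood (2.40 CPM) were low. Within the low lists, Ptgds (306 CPM), Ttr (176 CPM) and Hba-a1 (127 CPM) stood out, and the part of vessels from choroid plexus and meninges in the counts of the barrier genes was not tested.

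Acvrl1 could be compared between libraries. It had 209 counts in replicate 3 and 161 in replicate 2. After scaling by TMM over the 243 genes that reached 10 counts in both libraries, the scaled counts were 206 and 164, with a mean of 185 ± 29.6 (SD, n = 2). The ratio of replicate 3 to replicate 2 was 1.26 (95% counting interval 1.02 to 1.55), and 64 of the 243 genes had a larger ratio in either direction. Acvrl1 did not pass a two-sided exact binomial test adjusted over all 243 genes (adjusted p = 0.0869, unadjusted p = 0.0329), while 33.7% of these 243 genes did. The test compares 2 libraries of the same group and covers counting error only.

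The relatives of Acvrl1 start with the same letters and were held by both files. Acvr1b, an activin receptor gene, was 1.34-fold higher in replicate 3 (1.22 to 1.48), with 975 counts against 703 in replicate 2, and passed the test (adjusted p = 3.26e-08, exact binomial test). Acvr2b was 1.23-fold higher (325 against 256 counts, adjusted p = 0.0435, exact binomial test). Acvr1 (790 against 709 counts), Acvr1c (39 against 28) and Acvr2a (1306 against 1261) did not pass. Their ratios were 1.08 (0.973 to 1.195) for Acvr1, 1.35 (0.808 to 2.27) for Acvr1c and 1.00 (0.927 to 1.08) for Acvr2a. The Acvr1c ratio was as large as that of Acvr1b but rested on far fewer counts. Not passing is therefore not a sign of equal levels.

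Beside Acvrl1, 14 other genes of the vascular lists were held by both files. Of these 15 genes, 4 passed the test (26.7%, against 33.7% of all 243 tested genes). The median log2 ratio of replicate 3 to replicate 2 over the 15 genes was 0.20, against 0.01 over all tested genes. Ace, the angiotensin-converting enzyme gene of endothelium and choroid plexus, had 877 counts in replicate 3 and 101 in replicate 2 and was 8.40-fold higher in replicate 3. The remaining 14 ratios lay between 0.883 and 1.35. Abcc5, with 2196 counts in replicate 3 and 2406 in replicate 2, was the only one of the 4 that was lower in replicate 3 (ratio 0.883, 0.833 to 0.936, adjusted p = 0.000162, exact binomial test).

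The efflux pump genes Abcb1a (498 counts in replicate 3 against 515 in replicate 2), Abcg2 (182 against 150) and Abcc4 (287 against 243) did not pass the test. Nor did Abcc6 (59 against 60). The mural genes Abcc9 (133 against 112 counts) and Acta2 (119 against 97) and the venular gene Ackr1 (413 against 359) did not pass either. The intervals of these 7 ratios spanned 1. All 7 genes had fewer counts than Abcc5, and so wider intervals. The interval of Abcb1a (ratio 0.936, 0.825 to 1.06) also held the Abcc5 ratio of 0.883. A pass for Abcc5 and not for Abcb1a therefore does not show that these genes differ. The other 9 barrier genes could not be compared between libraries.

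**Figure D4:**
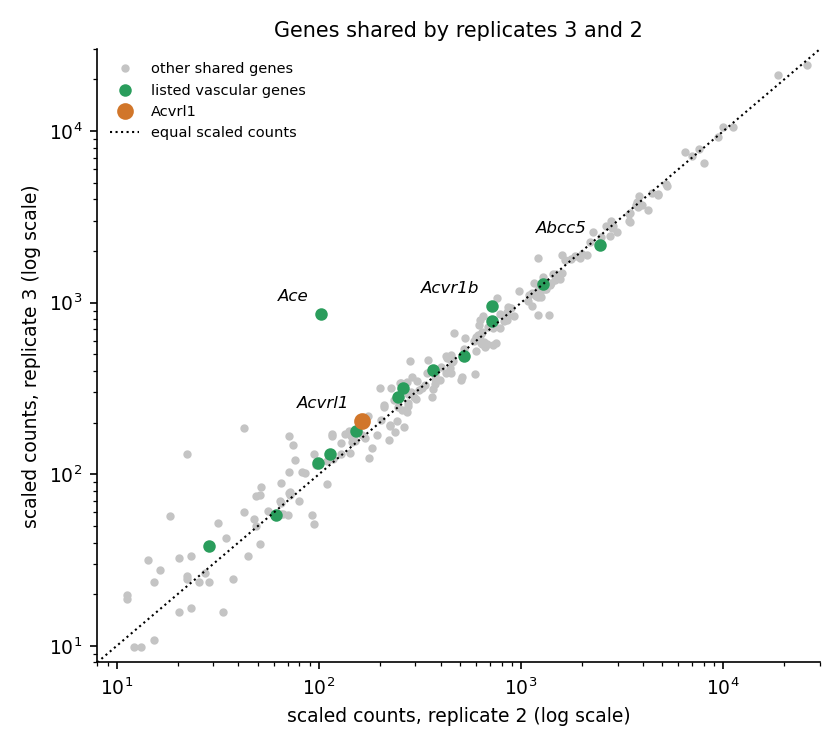
Scaled counts of the 243 shared genes with at least 10 counts in both libraries, in replicate 3 (vertical) and replicate 2 (horizontal), both on log axes. Acvrl1 is in orange, the other listed vascular genes are in green and the dotted line marks equality. Acvrl1 sits a little above the line (206 and 164 scaled counts), and Ace (863 and 103) stands far above it.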

How the data were processed

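Hippocampal RNA of 3 samples in 1 group was sequenced. RNA was isolated with TRIzol and libraries were made from bead-captured mRNA, per the labels' protocols. HISAT2 and Bowtie2, Trimmomatic, SAMtools, StringTie and Cufflinks, HTSeq and DESeq are named in the submitters' processing notes with neither role nor version. Genome build and strand setting are not given in these sources. The authors deposited whole-number counts per gene that were not normalized.

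Symbols came from the RefSeq gene table of GRCr8, matched by gene identifier for 17515 of 18560 genes. CPM and intervals were computed from the counts of replicate 2 with SciPy 1.17.1, and genes with at least 10 counts were called detected. Replicates 3 and 2 were scaled by TMM (edgeR 4.0.16). Each of the 243 shared genes with at least 10 counts in both was tested with an exact binomial test, two-sided. The p-values were adjusted by Benjamini-Hochberg over these 243 genes, with 0.05 as the threshold. The test was checked only on artificial counts with counting error and a known scale. Neither the TMM scaling nor spread beyond counting error was checked in this way. DESeq2 1.42.0 size factors were an alternative. Reads carry no molecular identifiers and are not independent, so intervals and floors (3 counts for a count of 0) cover counting error only. The samples may be technical repeats, since no label states separate animals.

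The planned correction for transcript length could not be made, because the reference tables hold no transcript lengths. The barrier genes, lists and tests were chosen with earlier results of these data known. Named genes are the 10 barrier genes, their listed relatives, the 3 highest genes of each vascular list and those under 10 counts, and listed genes held by more than 1 file. Some listed genes are not reported here. Other genes, such as ligands, receptors, basement membrane genes and markers of other cells, were named after their values were seen. No row in the table of replicate 2 was found for Marveld3, Ly6c1, Gdf2 and Otx2. RefSeq gene models without a row of their own overlap 4 of the barrier genes (Ocln, Tjp1, Mfsd2a and Flt1), and reads from such overlaps could not be told apart.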

Additional observations from a re-analysis of the deposited data

How the results depend on the processing

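The ratio of Acvrl1 between replicates 3 and 2 kept its direction and stayed short of the threshold under DESeq2 size factors, no filter on counts, scaling without Ace and scaling by the total of the 307 shared genes, with values between 1.25 and 1.27 and adjusted p between 0.0714 and 0.0948 (exact binomial test). The last 2 settings were chosen after seeing the data. Between 80 and 82 shared genes passed the test under these settings. Replicate 1 takes no part in this comparison, so leaving it out could not change either value (1.26 and 82). Leaving out replicate 2 or 3 ends the comparison. All 10 genes were detected at a minimum of 1, 10 or 50 counts, which follows from their lowest count of 161 (Acvrl1). Without the 10 genes with most counts, every barrier gene's CPM is higher by 3.39%, within its counting interval. Among genes with at least 10 counts, the percentiles of the 10 genes ran between 31.3 and 89.4. With undetected members included, the median CPM changed beyond its counting interval for 3 of 19 lists. It became 2.79 for endothelial activation and leak, 41.4 for oligodendrocyte precursors and 1.33 for blood. It changed within its interval for BMP and TGF-beta signalling, for mural cells, and for choroid plexus and ependyma. The remaining lists had no undetected member with a row, so their medians could not change. Levels per length were not run for want of transcript lengths. No paired analysis was possible because the labels name a single condition. Depth limits the lowest barrier gene, Acvrl1, to an interval that reaches 16.7% above its value, and Tjp1 to 4.16%.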

Other observations

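The files' own annotation ties the barrier genes to shared pathways, described here by read yield in replicate 2. The KEGG tight junction pathway holds Cldn5, Ocln and Tjp1 among 157 genes, of which 137 had at least 10 counts with a median of 56.8 CPM. Leukocyte transendothelial migration holds Cldn5, Ocln and Pecam1 among 106 genes (92 detected, median 42.9 CPM). The HIF-1 pathway holds Slc2a1, Flt1 and Tek among 96 genes (85 detected, median 58.5 CPM). The receptor genes Flt1, Tek and Pdgfrb share the Rap1, Ras, MAPK and PI3K-Akt pathways. Acvrl1 and Mfsd2a carry no KEGG pathway in the files.

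By Gene Ontology, 4 of the 10 genes (Acvrl1, Flt1, Pecam1 and Tek) are annotated to angiogenesis, a term with 186 genes of which 166 were detected at a median of 21.2 CPM. Of the 10, Mfsd2a alone carries the term for establishment of the blood-brain barrier, which only 3 genes of the table hold.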
